A study of Mus musculus with 12 samples.

Results

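The Hox genes of mouse fat were examined in RNA sequencing libraries of adipocytes and stromal vascular cells (SVCs, the mixture of other cells that is left once adipocytes float off) from epididymal adipose tissue (EAT), a visceral depot beside the testis, and inguinal adipose tissue (IAT), a subcutaneous depot. Members were chosen by symbol: every feature named Hoxa, Hoxb, Hoxc or Hoxd followed by a number, which gave 39 genes of the 24890 features listed. Expression was not used to choose them. Adipocytes and SVCs of each depot made up 4 groups of 3 libraries. The mice were C57BL/6J males, 18 weeks old and fed normal chow, with no treatment, no transgene and no deletion stated, and the fractions had been separated with collagenase I. Whether each library was made from its own mouse or from a pool is not labelled, so p-values measure only the spread between libraries, which may be technical.

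Hox genes encode homeodomain transcription factors that give cells their position along the head-to-tail axis. They lie in 4 clusters, and within a cluster the gene order follows the order of expression along the body, with low paralog numbers anterior and high numbers posterior. Adult fibroblasts and fat cells keep a Hox pattern that reflects where in the body they arose, and fat depots are known to differ in it. The proteins bind DNA together with partners of the TALE homeodomain class (Pbx and Meis), and silent stretches of the clusters are held by Polycomb repressors.

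The files held 11 genes of the Hoxa cluster over 105.5 kb of chromosome 6, 10 of Hoxb over 173.9 kb of chromosome 11, 9 of Hoxc over 115.7 kb of chromosome 15 and 9 of Hoxd over 96.8 kb of chromosome 2 (GRCm38). Of these, 8 had paralog numbers 1 to 3 (called anterior here), 15 had numbers 4 to 8 (central) and 16 had numbers 9 to 13 (posterior). Levels are in FPKM, which scales fragments by exon length and by sequencing depth, so that genes can be compared per length. The loci of 10 Hox genes overlap another listed feature, among them Hoxa3 with Hoxa4, Hoxa5 and Hoxa6, and Hoxd3 with Hoxd4. The strand setting of the counting was not given in the sources used here, so reads could be shared between these neighbours and their values are uncertain to that extent.

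The estimated fragments behind the gene values ran from 14.2 M to 24.7 M per library. Across genes, which are no independent replicates, r between libraries of the same group was 0.982 to 0.996, and EAT adipocyte library 1 gave the lowest values. The labelled fractions carried their defining genes. The summed level of 5 adipocyte markers was 8691 to 9088 FPKM in EAT adipocytes and 7063 to 7607 in IAT adipocytes, against 35.6 to 42.3 in EAT SVCs and 77.0 to 86.9 in IAT SVCs. Pdgfra, a receptor of fibroblastic progenitors, was at 0.502 to 1.11 FPKM in the adipocyte libraries and at 33.1 to 43.5 in the SVC libraries. SVC genes were not absent from the adipocyte libraries: the median summed level of 4 endothelial markers there was 17.8% of the SVC level in EAT and 17.5% in IAT.

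By the ratio of their means, the 3 tested genes that stood apart most between the depots were Hoxa9, Hoxa10 and Hoxc10. They sit at the posterior end of the stretch of their clusters that was expressed in IAT. A gene was tested if it reached 1 FPKM in at least 3 of the 12 libraries. These 3 genes did so only through IAT libraries, so they had to differ between the depots. In adipocytes Hoxc4 stood apart in the opposite direction. The RefSeq table of start sites (GRCm38.p6) matched 22 of the 39 genes with 24 windows. Hoxc4 was the only Hoxc gene among them, so Hoxc10 has no window to show. The 250 bases before the start are shown for Hoxa7, which did not pass the depot test in adipocytes, for its neighbours Hoxa9 and Hoxa10, which did, and for Hoxc4. All are written 5′ to 3′ on the strand of the gene, and capitals mark each CpG, the dinucleotide that can be methylated. Hoxa7 is at chr6:52218574-52218823 on the minus strand, Hoxa9 at chr6:52227371-52227620 on the minus strand, Hoxa10 at chr6:52234940-52235189 and, for its start farther upstream, chr6:52240855-52241104, both on the minus strand, and Hoxc4 at chr15:103034145-103034394 on the plus strand.
Hoxa7: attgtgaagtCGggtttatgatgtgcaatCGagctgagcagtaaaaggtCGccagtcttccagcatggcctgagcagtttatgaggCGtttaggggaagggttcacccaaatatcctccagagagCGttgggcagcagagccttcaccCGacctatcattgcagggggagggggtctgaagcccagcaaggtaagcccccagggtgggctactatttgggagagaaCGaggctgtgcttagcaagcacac
Hoxa9: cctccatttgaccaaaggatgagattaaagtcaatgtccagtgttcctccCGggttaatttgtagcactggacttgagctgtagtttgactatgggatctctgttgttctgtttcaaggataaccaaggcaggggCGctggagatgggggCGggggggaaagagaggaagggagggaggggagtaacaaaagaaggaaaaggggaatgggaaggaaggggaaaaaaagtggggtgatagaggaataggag
Hoxa10, inner start: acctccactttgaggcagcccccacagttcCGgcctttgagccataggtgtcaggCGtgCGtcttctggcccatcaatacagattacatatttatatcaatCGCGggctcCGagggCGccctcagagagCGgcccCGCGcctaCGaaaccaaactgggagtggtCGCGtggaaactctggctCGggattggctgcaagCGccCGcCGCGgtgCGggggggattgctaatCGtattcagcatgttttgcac
Hoxa10, outer start: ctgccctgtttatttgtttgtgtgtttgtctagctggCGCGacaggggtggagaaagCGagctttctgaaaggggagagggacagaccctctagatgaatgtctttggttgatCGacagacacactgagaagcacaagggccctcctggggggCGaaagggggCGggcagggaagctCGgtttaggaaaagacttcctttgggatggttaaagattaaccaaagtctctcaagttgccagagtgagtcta
Hoxc4: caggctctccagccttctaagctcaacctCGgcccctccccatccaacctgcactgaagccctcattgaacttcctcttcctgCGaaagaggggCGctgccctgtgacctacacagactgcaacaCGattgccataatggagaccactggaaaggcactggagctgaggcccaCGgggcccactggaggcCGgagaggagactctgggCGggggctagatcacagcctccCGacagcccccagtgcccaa
The inner Hoxa10 window held 20 CpGs and the outer 7, the Hoxa9 window 3, the Hoxa7 window 7 and the Hoxc4 window 8. The median was 12.5 over the 24 Hox windows, with a range of 2 to 35, and 6 over all 32851 windows of this length in the table. The letters TGATNNAT, a form of the Pbx and Hox site, were searched on both strands and found in 4 of the 24 Hox windows and in 7.68% of all windows. The letters TTTATG, a form bound by posterior Hox proteins, were found in 5 of 24 and in 10.8% of all windows. The Hoxa7 window held 2 of the latter. These matches are descriptions of the letters and not sites of binding.

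The genes with a measurable level were mostly those of central paralog number. Of the 39 genes, 25 reached 1 FPKM in at least 3 of the 12 libraries and were tested: all 15 central genes, 4 of 8 anterior genes and 6 of 16 posterior genes. The other 14 reached 1 FPKM in no library. These included Hoxb1, Hoxd1 and Hoxd3 among the anterior genes and Hoxa11, Hoxa13, Hoxb13, Hoxc11, Hoxc12, Hoxc13, Hoxd10, Hoxd11, Hoxd12 and Hoxd13 among the posterior genes. Hoxa13, Hoxb1, Hoxc12 and Hoxd12 were listed at 0 in every library. No gene with a number above 10 therefore passed in any cluster, and the last gene that passed was Hoxa10 in Hoxa, Hoxb9 in Hoxb, Hoxc10 in Hoxc and Hoxd9 in Hoxd. In bulk libraries, fewer cells of a type and less RNA per cell cannot be told apart, here and in each comparison that follows.

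**Figure D1:**
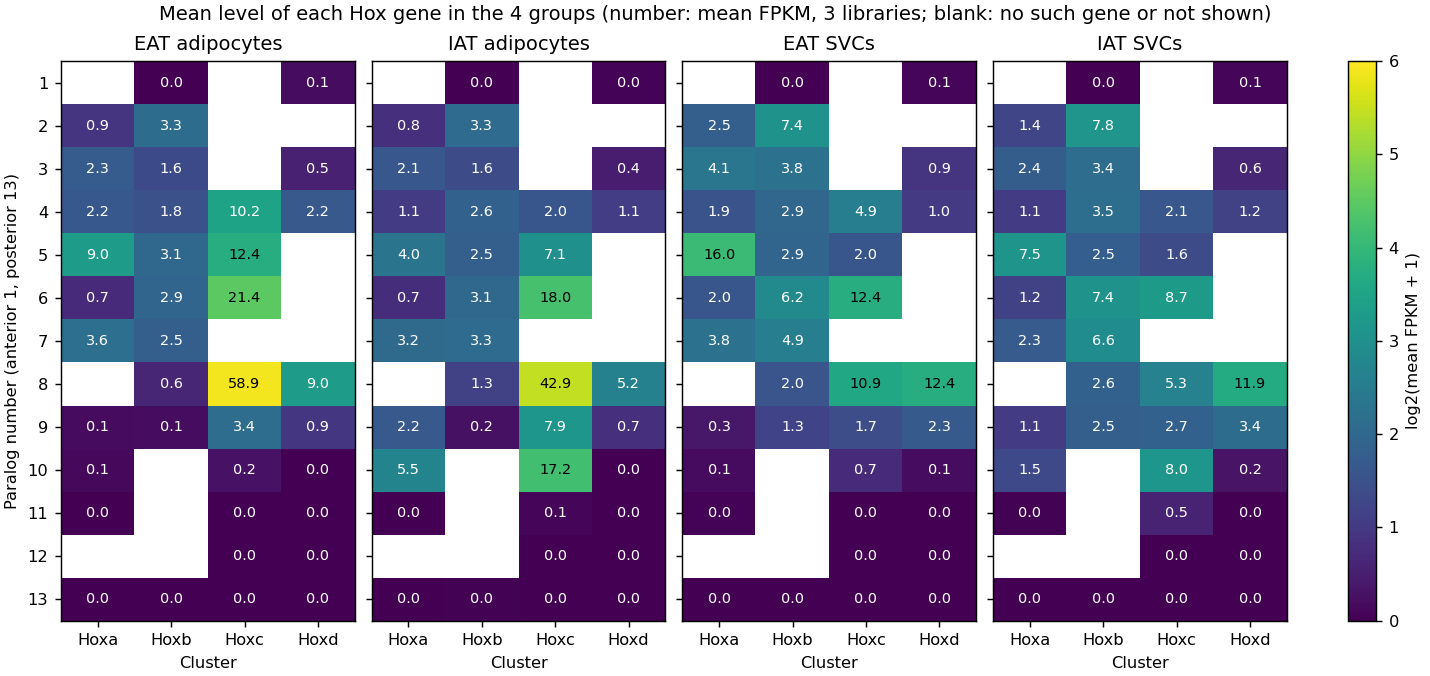
Mean level of each Hox gene as a heat map with 1 panel per group, clusters across and paralog number (anterior 1 to posterior 13) downward. Colour gives log2(mean FPKM + 1), the printed number the mean FPKM of 3 libraries, and a blank a gene that does not exist or is not shown. The genes with numbers above 10 are at or near 0 except Hoxc11, at 0.519 FPKM in IAT SVCs, and Hoxa9, Hoxa10 and Hoxc10 are above 1 FPKM in the 2 IAT groups and below it in the 2 EAT groups.

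The number of Hox genes at 1 FPKM or more was 17 to 18 per library in EAT adipocytes, 21 in each IAT adipocyte library, 21 to 22 in EAT SVCs and 24 to 25 in IAT SVCs. By group means, 17 genes reached that level in all 4 groups. Hoxa9, Hoxa10 and Hoxc10 reached it in the 2 IAT groups and in neither EAT group, Hoxa2, Hoxa6, Hoxb9 and Hoxd9 reached it in the 2 SVC groups and in neither adipocyte group, and Hoxb8 in every group but EAT adipocytes. In single adipocyte libraries, Hoxa6 reached 1.31 FPKM and Hoxd9 1.08.

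The Hoxc cluster dominated in adipocytes. Its 9 genes summed to 106.6 ± 8.60 FPKM (SD, n = 3) in EAT adipocytes and 95.2 ± 2.58 in IAT adipocytes, against 32.5 ± 1.68 in EAT SVCs and 28.8 ± 0.627 in IAT SVCs. That was 69.0% and 67.6% of the summed Hox level in the adipocytes of EAT and IAT, and 29.0% and 28.5% in their SVCs. Hoxc8, known for specifying the thoracic region and, in mouse, for restraining brown adipogenesis, was the highest Hox gene in adipocytes, with 38.1% of the sum in EAT and 30.5% in IAT. In EAT SVCs the highest was Hoxa5, a regulator of lung and thoracic development, with 14.3%, and in IAT SVCs it was Hoxd8, a central gene of trunk patterning, with 11.8%. In IAT SVCs the Hoxb cluster held the largest share, 35.7%.

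Read from head to tail, the central genes held most of the sum in every group, and the posterior share separated the depots. Posterior genes made up 3.17 ± 0.223% of the summed Hox level in EAT adipocytes and 24.1 ± 0.706% in IAT adipocytes (SD, n = 3). In SVCs the posterior share was 5.86 ± 0.197% in EAT and 19.6 ± 0.800% in IAT. The libraries of the 2 depots did not overlap in this share in either fraction. The anterior share was lower in adipocytes, at 6.00% in EAT and 6.11% in IAT, than in SVCs, at 17.3% and 15.7%. These shares are descriptions with no test.

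**Figure D2:**
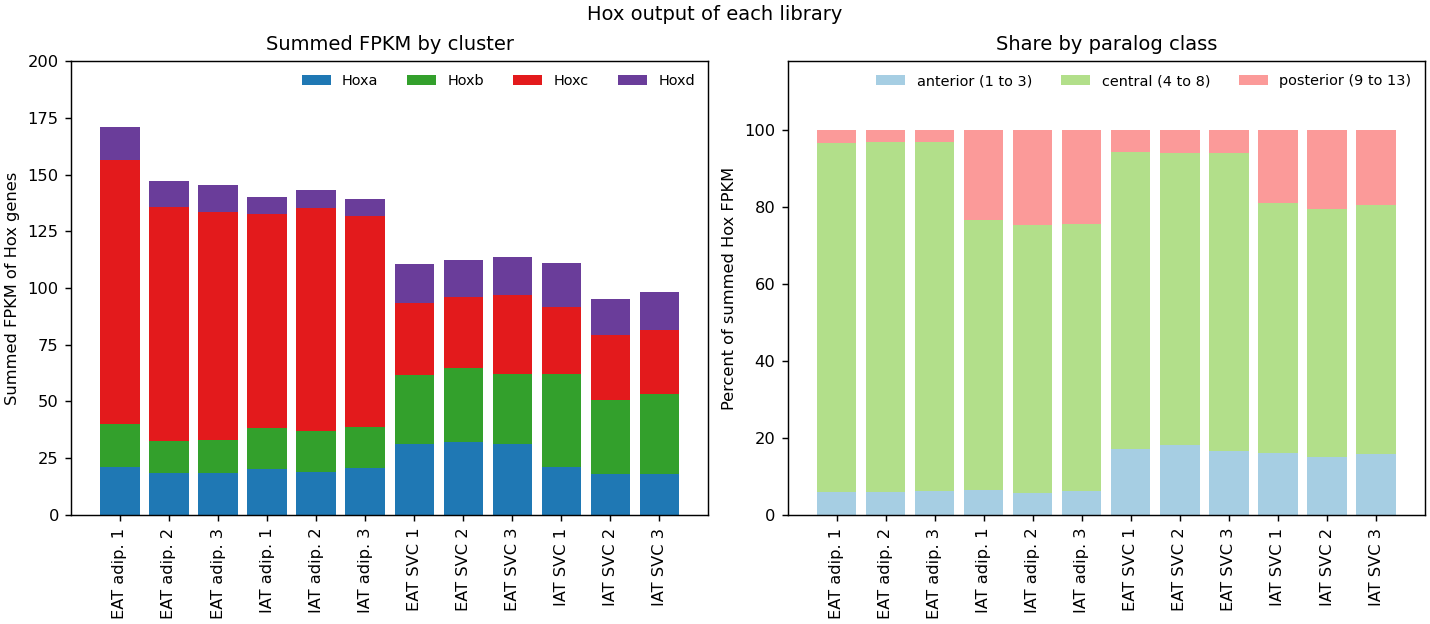
Stacked bars for each of the 12 libraries give the summed FPKM by cluster (left) and the percent of it held by anterior, central and posterior genes (right). The Hoxc sum is largest in the adipocyte libraries, with group means of 106.6 and 95.2 FPKM, and the posterior share is larger in the IAT libraries of both fractions.

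The comparison of IAT with EAT adipocytes asked how the Hox pattern of fat cells differs between a subcutaneous and a visceral depot. Hoxc10, Hoxa10, Hoxa9 and Hoxc9 rose, all of them posterior genes, and on log2(FPKM + 1) the largest falls were in Hoxc4, Hoxa5 and Hoxc5, all central. By the ratio of means, IAT over EAT, the order below Hoxc4 (0.199) and Hoxa5 (0.445) was Hoxa4 (0.503), Hoxd4 (0.516) and Hoxc5 (0.575). Of the 25 genes tested, 6 were higher and 8 lower in IAT and 11 did not pass, where 37.6% of all 13175 tested features were called, 10.3% higher and 27.3% lower. The libraries of the depots did not overlap for 15 of the 25, as for 48.3% of all features. The median log2 difference was -0.08 over the 25 genes and -0.10 over all features. By class, 4 of the 6 tested posterior genes rose and none fell, 2 central genes rose and 8 of 15 fell, and none of the 4 tested anterior genes passed. A gene that passed the filter only through its level in IAT had to differ between the depots, which holds for Hoxa9, Hoxa10 and Hoxc10.

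**Figure D3:**
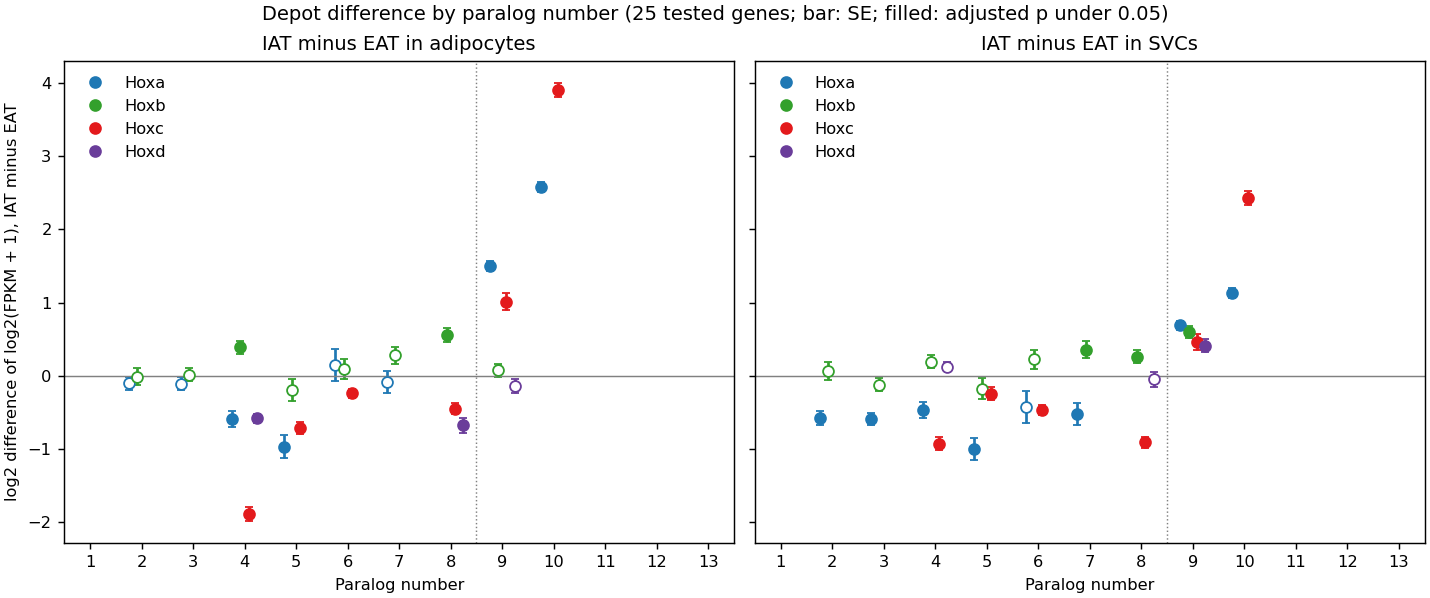
Log2 difference of IAT minus EAT, on log2(FPKM + 1), for the tested Hox genes in adipocytes (left) and in SVCs (right), by paralog number and coloured by cluster, with standard errors as bars and filled points for genes that passed the test. A dotted line separates central from posterior genes. Values lie near or below 0 for the central genes of Hoxa and Hoxc and reach 3.91 in adipocytes and 2.43 in SVCs at Hoxc10.

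Hoxc10, a posterior gene of the lumbar and hindlimb region, was at 0.133, 0.176 and 0.342 FPKM in the EAT adipocyte libraries and at 16.4, 18.5 and 16.9 in the IAT adipocyte libraries. Every IAT library lay far above every EAT library. The log2 difference was 3.91 ± 0.094 (SE, limma adjusted p = 1.3e-11), and the means differed 79.5-fold. Hoxa10, known for patterning the lumbar spine and the reproductive tract, was at 0.05, 0.135 and 0.0886 FPKM in EAT and 5.19, 5.27 and 6.07 in IAT adipocytes. The groups did not overlap, with a log2 difference of 2.57 ± 0.068 (limma adjusted p = 3.1e-11) and a 60.5-fold ratio of means. Hoxa9, a posterior gene that also acts in blood progenitors, was at 0.103, 0.159 and 0.115 FPKM in EAT and 1.94, 2.25 and 2.40 in IAT. Again no libraries overlapped, and the log2 difference was 1.5 ± 0.067 (limma adjusted p = 5.5e-09). The EAT values of these 3 genes rest on few fragments, and with a pseudocount of 1 the log2 difference understates the ratio of their means.

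Hoxc9, a gene of thoracic identity that lies next to Hoxc10, was well expressed in both depots, at 4.38, 3.05 and 2.86 FPKM in EAT adipocytes and 7.77, 8.25 and 7.55 in IAT adipocytes. The highest EAT library was still below each IAT library, and the log2 difference was 1.02 ± 0.11 (limma adjusted p = 1.8e-05). The ratio of Hoxc10 to Hoxc9 was 0.069 ± 0.046 in EAT adipocytes and 2.19 ± 0.0759 in IAT adipocytes (SD, n = 3). In Hoxa, the ratio of Hoxa10 to Hoxa7 went from 0.0248 ± 0.00462 to 1.72 ± 0.270. In Hoxb, no such change was measured at the posterior end: Hoxb9 was at 0.140 ± 0.0192 FPKM in EAT and 0.203 ± 0.0877 in IAT adipocytes and did not pass (limma adjusted p = 0.521). In Hoxd, Hoxd9 was at 0.924 ± 0.138 and 0.747 ± 0.106 FPKM and did not pass either (limma adjusted p = 0.252). Hoxb8 and Hoxb4, which are best known from blood progenitors, rose by smaller amounts, with log2 differences of 0.56 ± 0.093 and 0.39 ± 0.089 (limma adjusted p = 0.000555 and 0.00452).

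**Figure D4:**
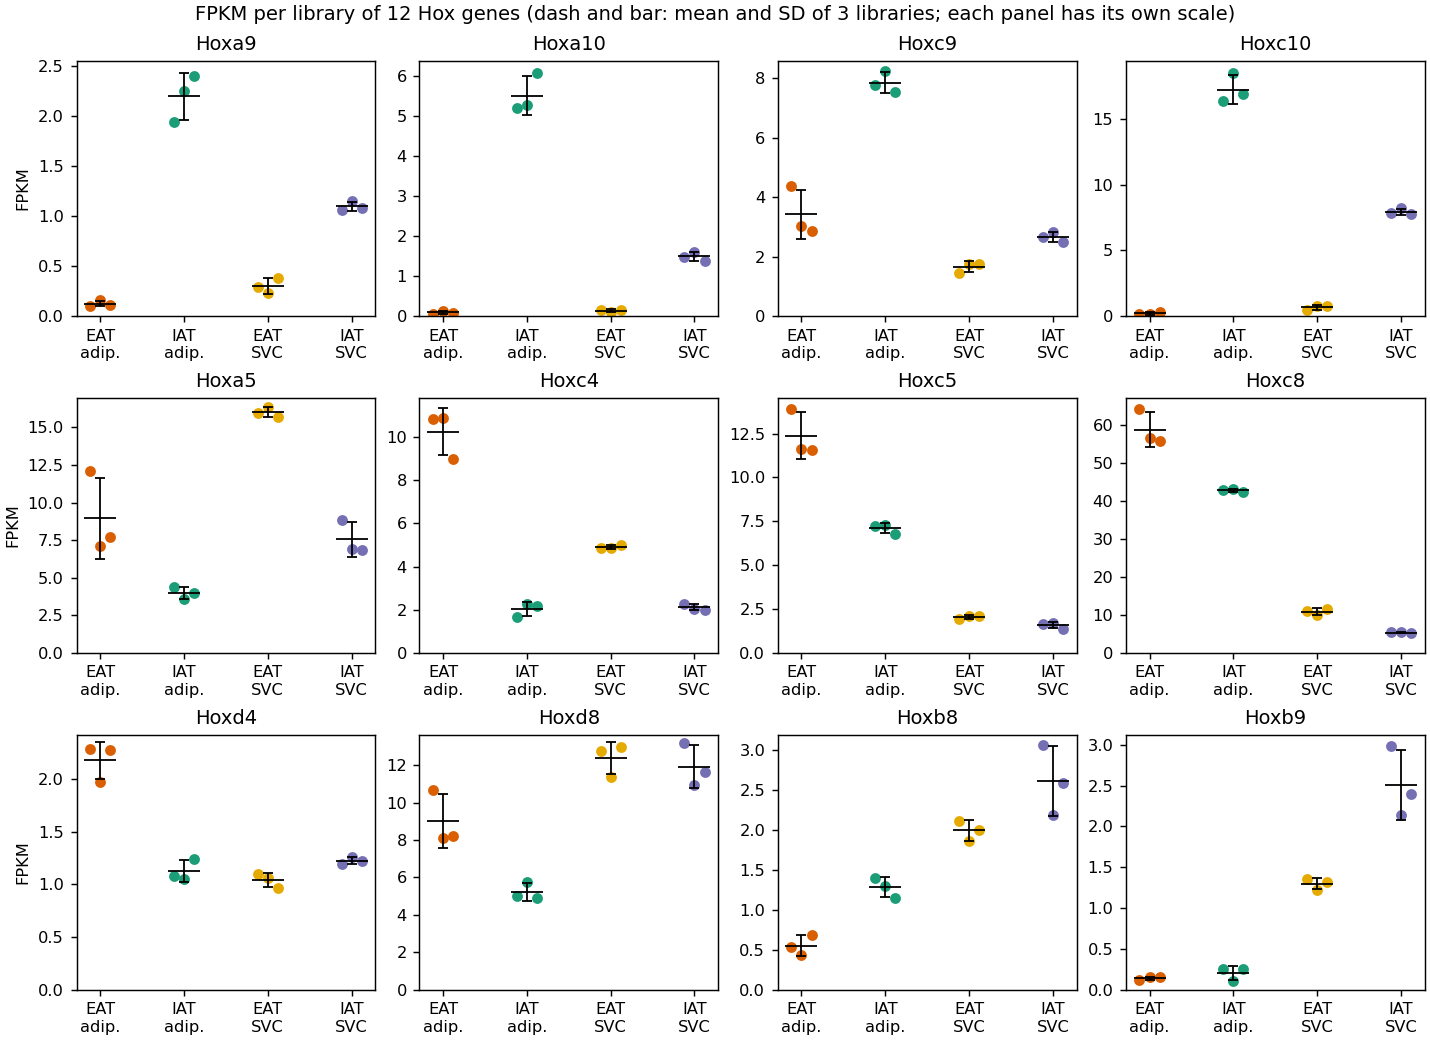
FPKM of 12 Hox genes in each library (points) by group, with a dash and bar for the mean and SD of 3 libraries, on a linear axis from 0 that differs between panels. Hoxc10 is at 16.4 to 18.5 FPKM in the IAT adipocyte libraries and at 0.133 to 0.342 in the EAT adipocyte libraries, while Hoxc4 runs the other way.

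Lower in IAT adipocytes, Hoxc4, a central gene also used in lymphocytes, was at 10.8, 10.9 and 8.98 FPKM in EAT and 1.67, 2.28 and 2.17 in IAT. The groups were apart by several times the spread of either, with a log2 difference of -1.89 ± 0.094 (limma adjusted p = 1.4e-08). Hoxa5 was at 12.1, 7.14 and 7.67 FPKM in EAT and 4.40, 3.57 and 4.0 in IAT. The groups did not overlap, and with all libraries the log2 difference was -0.97 ± 0.15 (limma adjusted p = 0.00038). EAT library 1 stood above the other EAT libraries. Without it the call held, at a smaller log2 difference of -0.756. Hoxc5, next to Hoxc4, was at 13.9, 11.6 and 11.6 FPKM in EAT and 7.26, 7.30 and 6.77 in IAT (log2 difference -0.72 ± 0.083, limma adjusted p = 3e-05).

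Hoxd8 and Hoxd4, the central genes of Hoxd, were both lower in IAT adipocytes. Hoxd8 was at 9.0 ± 1.43 FPKM in EAT and 5.23 ± 0.480 in IAT, and Hoxd4 at 2.18 ± 0.176 and 1.13 ± 0.105. Their log2 differences were -0.68 ± 0.11 and -0.58 ± 0.064 (limma adjusted p = 0.000365 and 1.9e-05). Hoxa4 fell to 0.503 of its EAT level (log2 difference -0.59 ± 0.11, limma adjusted p = 0.00115). Hoxc8 was at 64.3, 56.6 and 55.8 FPKM in EAT and 42.9, 43.3 and 42.5 in IAT, and remained the highest Hox gene in both. Its groups did not overlap, with a log2 difference of -0.45 ± 0.074 (limma adjusted p = 0.000534). Hoxc6, a gene of the forelimb level, was at 21.4 ± 1.20 and 18.0 ± 0.459 FPKM, and its difference of -0.24 ± 0.067 (limma adjusted p = 0.0136) lost its call under median-of-ratios scaling (limma adjusted p = 0.264) and without IAT adipocyte library 3 (adjusted p = 0.0545). The other genes did not pass: Hoxa2, Hoxa3, Hoxa6, Hoxa7, Hoxb2, Hoxb3, Hoxb5, Hoxb6, Hoxb7, Hoxb9 and Hoxd9. For Hoxa6 the 3 EAT libraries stood at 0, 0.662 and 1.31 FPKM, a spread that limits any statement on it. For Hoxa7 the interval of the log2 difference ran from -0.41 to 0.24, and the gene was lower in IAT without EAT adipocyte library 1 (adjusted p = 0.0254), in which it was at 2.33 FPKM against 4.47 and 3.87. Without the same library, Hoxb7 was higher in IAT (adjusted p = 0.00581), and without EAT adipocyte library 2, Hoxb5 was lower (adjusted p = 0.0475).

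All-feature medians shift with the scaling: the median log2 difference over all features in this comparison was -0.10 as deposited and 0.0015 under median-of-ratios scaling, and the split of calls over all features went from 1363 higher and 3597 lower to 2115 and 2160. The split of the Hox genes moved from 6 and 8 to 7 and 7.

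In SVCs the same question was asked of the non-adipocyte cells. Hoxc10, Hoxa10, Hoxa9, Hoxb9, Hoxc9 and Hoxd9 rose in IAT, which was every posterior gene tested, and 5 of the 8 tested Hoxa genes fell. Hoxa9, Hoxa10 and Hoxc10 reached 1 FPKM only in IAT libraries, so the filter favoured a rise for them. Of the 25 genes, 8 were higher and 9 lower and 8 did not pass, where 40.2% of all tested features were called, 14.0% higher and 26.2% lower. The depots did not overlap for 21 of the 25, as for 55.1% of all features. The median log2 difference was -0.05 over the 25 genes and -0.06 over all features. Over all features 1843 were higher and 3458 lower as deposited, 2350 and 2751 under median-of-ratios scaling and 1281 and 4041 in TPM.

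Hoxc10 was at 0.464, 0.770 and 0.786 FPKM in the EAT SVC libraries and 7.87, 8.21 and 7.78 in the IAT SVC libraries. No library overlapped, with a log2 difference of 2.43 ± 0.094 (limma adjusted p = 6.1e-10) and an 11.8-fold ratio of means. Hoxa10 was at 0.162, 0.0911 and 0.150 FPKM in EAT and 1.48, 1.60 and 1.39 in IAT, again without overlap (log2 difference 1.13 ± 0.068, limma adjusted p = 3.9e-08). Hoxa9 was at 0.292, 0.229 and 0.385 FPKM in EAT and 1.06, 1.15 and 1.08 in IAT (log2 difference 0.69 ± 0.067, limma adjusted p = 3.9e-06). The IAT SVC libraries thus sat just above 1 FPKM for Hoxa9 and at 1.39 to 1.60 for Hoxa10.

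Hoxb9, a posterior gene of the thorax, was at 1.36, 1.22 and 1.32 FPKM in EAT SVCs and 2.98, 2.13 and 2.40 in IAT SVCs. IAT library 1 was the highest and the groups did not overlap (log2 difference 0.60 ± 0.084, limma adjusted p = 9.6e-05). Hoxc9 and Hoxd9 were higher by 0.46 ± 0.11 and 0.41 ± 0.090 on the log2 scale (limma adjusted p = 0.00543 and 0.0029). Hoxb7 and Hoxb8 also passed, with log2 differences of 0.36 ± 0.12 and 0.26 ± 0.093 (limma adjusted p = 0.0275 and 0.0389), but Hoxb7 lost its call in 4 of 21 alternatives and Hoxb8 in 10. Among those were the removal of EAT SVC library 1 (adjusted p = 0.122 and 0.0563) and of IAT SVC library 1 (0.109 and 0.159), and for Hoxb8 also that of EAT SVC library 2 or 3, IAT SVC library 3 or IAT adipocyte library 2.

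In IAT SVCs, 5 of the 6 genes from Hoxa2 to Hoxa7 fell. Hoxa5 was at 16.0, 16.3 and 15.7 FPKM in EAT and 8.85, 6.93 and 6.83 in IAT, with no overlap (log2 difference -1.0 ± 0.15, limma adjusted p = 0.000202). Hoxa3, needed for the thymus and parathyroid, went from 4.12 ± 0.267 to 2.40 ± 0.176 FPKM, and Hoxa2, which patterns the second pharyngeal arch, from 2.52 ± 0.231 to 1.37 ± 0.248. Their log2 differences were -0.59 ± 0.086 and -0.58 ± 0.089 (limma adjusted p = 0.000135 and 0.000221). Hoxa4 fell by 0.47 ± 0.11 (limma adjusted p = 0.00402). Hoxa7 fell by 0.52 ± 0.15 (limma adjusted p = 0.014), a call lost without EAT SVC library 2 (adjusted p = 0.0551) or IAT SVC library 2 (adjusted p = 0.0574). Hoxa6 did not pass (adjusted p = 0.146), although its libraries did not overlap, and it passed without EAT adipocyte library 1 (adjusted p = 0.00956) or 3 (adjusted p = 0.0491) and in a fit on the SVC groups alone (adjusted p = 0.00654).

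In Hoxc, the central genes fell together while Hoxc9 and Hoxc10 rose. Hoxc8 was at 11, 9.99 and 11.6 FPKM in EAT and 5.39, 5.45 and 5.12 in IAT (log2 difference -0.91 ± 0.074, limma adjusted p = 7.2e-07). Hoxc4 was at 4.84, 4.84 and 5.0 FPKM in EAT and 2.27, 2.04 and 2.01 in IAT (log2 difference -0.93 ± 0.094, limma adjusted p = 5.2e-06). Neither pair of groups overlapped. Hoxc6 fell by 0.46 ± 0.067 (limma adjusted p = 0.000123). Hoxc5 fell by 0.24 ± 0.083 (limma adjusted p = 0.0353) and lost its call under median-of-ratios scaling (adjusted p = 0.112) and without any of 5 SVC libraries (adjusted p = 0.0507 to 0.136). The sign changed between Hoxc8 and Hoxc9 in both fractions, and in Hoxa between Hoxa7 and Hoxa9 in SVCs.

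Cell makeup differed between the depots in the same SVC libraries. Summed mesothelium markers were at 353.7 to 417.6 FPKM in EAT SVCs and 1.51 to 1.90 in IAT SVCs, with Wt1 at 0 in IAT. Summed B cell markers were at 36.8 to 40.2 FPKM in EAT SVCs and 147.4 to 225.2 in IAT SVCs, T cell markers at 8.45 to 9.59 and 46.8 to 74.4, and skeletal muscle markers at 7.65 to 7.86 and 56.8 to 68.5. In adipocytes the mesothelium markers summed to 14.8 to 17.3 FPKM in EAT and 0.479 to 0.516 in IAT, and B cell markers to 1.03 to 1.61 and 5.04 to 5.25. Summed macrophage markers were at 574.9 to 603.6 FPKM in EAT SVCs and 340.7 to 365.2 in IAT SVCs, and at 63.3 to 77.0 and 14.2 to 19.3 in the adipocytes. Fibroblastic progenitor markers had medians of 4415 FPKM summed in EAT SVCs and 4121 in IAT SVCs, with members at different levels in opposite directions. Dcn, a matrix proteoglycan, was at 3098 to 3849 FPKM in EAT SVCs and 2249 to 2389 in IAT SVCs. Dpp4, another marker of this list, was also lower in every IAT SVC library than in every EAT SVC library. So was Pdgfra, at 42.0 to 43.5 FPKM in EAT SVCs and 33.1 to 37.6 in IAT SVCs. Pi16 was at 103.0 to 117.5 and 292.8 to 352.4, the collagen gene Col1a1 at 225.5 to 283.6 and 639.4 to 692.4, and Ly6a at 326.4 to 400.6 and 690.0 to 784.3. The part of these markers in the Hox differences of either fraction was not tested.

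The fraction comparison set adipocytes against SVCs within a depot. In EAT, 6 of the 25 tested Hox genes were higher in adipocytes, 15 lower and 4 did not pass, where 83.8% of all tested features were called, 31.1% higher and 52.7% lower. In IAT, 8 were higher, 11 lower and 6 did not pass, where 83.7% were called, 29.8% higher and 53.9% lower. Groups without overlap were found for 21 Hox genes in EAT, beside 83.1% of all features, and for 20 in IAT, beside 88.3%. The shares called are thus near those of all features, and Hoxa2 and Hoxb9, which passed the filter through SVCs, had to be lower in adipocytes. Hoxa6 and Hoxd9 reached 1 FPKM in SVCs and, outside them, only in single EAT adipocyte libraries, so the filter favoured a lower level there too. What differed was the cluster: 5 of the 6 tested Hoxc genes were higher in adipocytes in each depot. In Hoxb, 7 of the 8 tested genes were lower in each, Hoxb9 among them. The 2 depots use separate libraries here, with 1 estimate of the spread.

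**Figure D5:**
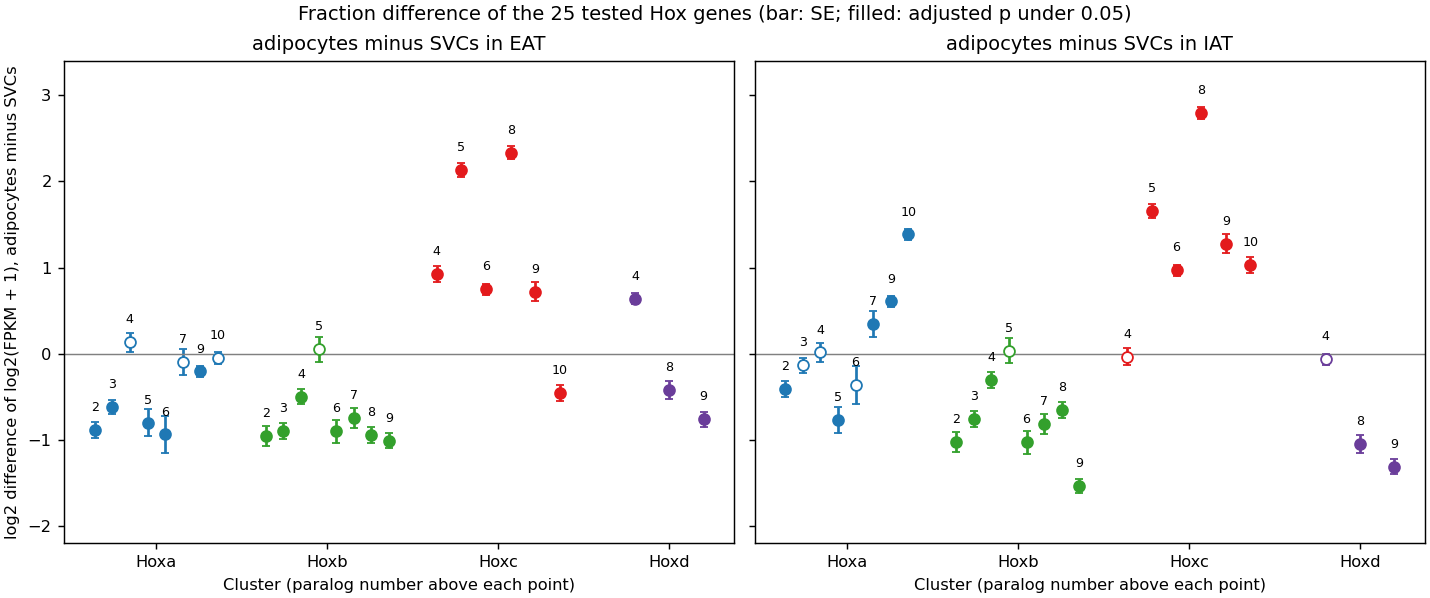
Log2 difference of adipocytes minus SVCs, on log2(FPKM + 1), for the tested Hox genes in EAT and in IAT, grouped by cluster, with the paralog number above each point, standard errors as bars and filled points for genes that passed the test. Hoxc8 reaches 2.33 in EAT and 2.80 in IAT, and 7 of 8 Hoxb genes are lower in adipocytes in each depot.

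Hoxc8 was 5.41-fold higher in adipocytes in EAT (log2 difference 2.33 ± 0.074, limma adjusted p = 1e-11) and 8.06-fold higher in IAT (2.80 ± 0.074, limma adjusted p = 2e-12), from the library values given above. Hoxc5 was at 1.92, 2.09 and 2.10 FPKM in EAT SVCs and 1.66, 1.68 and 1.38 in IAT SVCs, well under its adipocyte libraries. Its log2 differences were 2.13 ± 0.083 in EAT and 1.66 ± 0.083 in IAT (limma adjusted p = 6.5e-11 and 7.2e-10). Hoxc6 was higher in adipocytes by 0.75 ± 0.067 and 0.97 ± 0.067, and Hoxc9 by 0.72 ± 0.11 and 1.27 ± 0.11. The other Hoxc genes depended on the depot. Hoxc4 was higher in adipocytes in EAT (0.93 ± 0.094, limma adjusted p = 8.4e-07) and did not pass in IAT (-0.04 ± 0.094, adjusted p = 0.734). Hoxc10 was lower in adipocytes in EAT (-0.46 ± 0.094, limma adjusted p = 0.000534) and higher in IAT (1.03 ± 0.094, limma adjusted p = 3.1e-07). In EAT, however, Hoxc10 was below 1 FPKM in both fractions, at 0.133 to 0.342 in adipocytes and 0.464 to 0.786 in SVCs. It passed the filter only through IAT.

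Lower in adipocytes in both depots were Hoxb2, Hoxb3, Hoxb4, Hoxb6, Hoxb7, Hoxb8 and Hoxb9, with log2 differences from -0.50 to -1.01 in EAT and from -0.31 to -1.54 in IAT. The IAT call for Hoxb4 was lost in TPM (adjusted p = 0.124) and under median-of-ratios scaling (adjusted p = 0.1). The exception in Hoxb was Hoxb5, at 2.47 to 3.11 FPKM in the 4 group means. Hoxb9 stood at 10.8% of its SVC level in EAT adipocytes and 8.10% in IAT adipocytes, below the 17.8% and 17.5% of the endothelial markers and above the 4.10% and 4.78% of the fibroblastic progenitor markers, the 4.17% and 3.15% of the B cell markers and the 2.07% and 1.40% of the T cell markers. The macrophage markers stood at 13.3% and 4.87%, the mural cell markers at 23.7% and 14.1% and the mesothelium markers at 4.66% and 30.5%. The mesothelium value in IAT rests on median sums of 0.515 FPKM in adipocytes and 1.69 in SVCs. Epididymal epithelium markers stood at 7.63% and 11.7%, mammary epithelium markers at 4.7% and 6.1% and skeletal muscle markers at 427% and 39.9%. The part of SVC RNA in the Hoxb9 level of the adipocyte libraries was not tested. Hoxb2, a gene of the hindbrain, stood at 45.4% and 42.2%. In Hoxd, Hoxd8 and Hoxd9 were lower in adipocytes in both depots, by 0.43 ± 0.11 and 0.77 ± 0.090 in EAT and by 1.05 ± 0.11 and 1.31 ± 0.090 in IAT on the log2 scale, while Hoxd4 was higher in EAT (0.64 ± 0.064, limma adjusted p = 8.1e-07).

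Hoxa was mixed in IAT, with 3 of 8 tested genes higher in adipocytes and 2 lower. In EAT, 0 of 8 were higher and 5 were lower, where 52.7% of all features were lower. Hoxa2 and Hoxa5 were lower in adipocytes in both depots, Hoxa5 by 0.80 ± 0.15 in EAT and 0.77 ± 0.15 in IAT. Hoxa3 and Hoxa6 were lower in EAT, at 56.6% and 32.5% of their SVC means, in all 21 alternatives too. Neither passed in IAT in the main run. In IAT, Hoxa10 (1.38 ± 0.068) and Hoxa9 (0.61 ± 0.067) were higher in adipocytes, with limma adjusted p = 5.9e-10 and 2.2e-06. In EAT, Hoxa10 did not pass (adjusted p = 0.45), and Hoxa9 was lower by 0.21 ± 0.067 (limma adjusted p = 0.0115), a call lost without EAT SVC library 3 (adjusted p = 0.0548). Both genes were below 1 FPKM in every EAT library. Hoxa7 passed as higher in IAT adipocytes (0.35 ± 0.15, limma adjusted p = 0.0468) and lost that call in 12 of 21 alternatives, among them the removal of any IAT library of either fraction, of any EAT SVC library or of EAT adipocyte library 3.

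Whether the depot difference itself differed between the fractions was tested as an interaction. Of the 25 genes, 13 passed, 7 with a larger and 6 with a smaller IAT minus EAT difference in adipocytes than in SVCs, where 32.5% of all features were called. Hoxa10 (1.44 ± 0.096, limma adjusted p = 2.4e-07), Hoxc10 (1.48 ± 0.13, adjusted p = 3.1e-06) and Hoxa9 (0.81 ± 0.095, adjusted p = 3.2e-05) differed between depots more in adipocytes than in SVCs. All 3 passed the filter only through IAT and were below 1 FPKM in every EAT library. Their interactions on log2(FPKM + 1) thus largely follow their IAT levels. Mean IAT levels in adipocytes and SVCs were 5.51 and 1.49 FPKM for Hoxa10. They were 17.2 and 7.95 for Hoxc10 and 2.19 and 1.10 for Hoxa9. Hoxd4 (-0.71 ± 0.091, adjusted p = 7.1e-05) and Hoxc4 (-0.96 ± 0.13, adjusted p = 0.000127) had a lower IAT minus EAT difference in adipocytes than in SVCs. Hoxb9 also had a lower difference in adipocytes (-0.53 ± 0.12, adjusted p = 0.0049): it differed in SVCs, as given above, with no call in adipocytes, and its interaction was lost at a pseudocount of 0.1 (adjusted p = 0.162). For Hoxa5 the interaction was 0.03 ± 0.22 (limma adjusted p = 0.925), an interval from -0.44 to 0.50.

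Some of the genes below the filter had low levels in particular groups. Hoxc11, which follows Hoxc10, was at 0.659, 0.230 and 0.668 FPKM in IAT SVCs, at 0.164, 0.0873 and 0 in IAT adipocytes and at 0.0367, 0 and 0 in EAT SVCs, and was listed at 0 in all EAT adipocyte libraries. With no filter on low values it was higher in IAT SVCs (log2 difference 0.57, limma adjusted p = 0.00375). Hoxd10, which follows Hoxd9, was at 0.269, 0.203 and 0.273 FPKM in IAT SVCs and 0.177, 0.105 and 0.153 in EAT SVCs (log2 difference 0.12 without the filter, limma adjusted p = 0.00717), and was at 0.0240, 0 and 0 in IAT adipocytes and listed at 0 in EAT adipocytes. Among anterior genes, Hoxd3 was at 0.881 ± 0.0825 FPKM in EAT SVCs and 0.551 ± 0.0408 in IAT SVCs, but its locus overlaps Hoxd4.

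The partners and regulators of Hox genes were read from lists of genes. Of 11 TALE cofactors 10 were tested, and in IAT 5 fell and none rose in adipocytes, 6 fell and 1 rose in SVCs. For all features, here and for each list that follows, 27.3% fell and 10.3% rose in adipocytes, and 26.2% fell and 14.0% rose in SVCs. Meis1, a cofactor of posterior Hox proteins, was at 8.40 ± 0.306 FPKM in EAT and 2.40 ± 0.102 in IAT SVCs (log2 difference -1.47 ± 0.067, limma adjusted p = 2.9e-09). The median over the 10 was -0.35 in adipocytes and -0.32 in SVCs, beside -0.10 and -0.06 over all features. Of 24 Polycomb genes 23 were tested, with 2 higher and 10 lower in IAT adipocytes and 4 higher and 2 lower in IAT SVCs, and medians of -0.19 and 0.08 beside the -0.10 and -0.06 of all features. Ezh2, the histone H3 lysine methyltransferase of Polycomb, was among the 2 that rose in adipocytes, while 10 fell. It was at 3.75 ± 0.364 FPKM in EAT and 5.95 ± 0.294 in IAT adipocytes (log2 difference 0.55 ± 0.088, limma adjusted p = 0.00041). Of 13 Trithorax genes and demethylases, 1 rose and 1 fell in adipocytes and 2 fell in SVCs, fewer than the 37.6% and 40.2% called over all features. Kdm6b, which removes the Polycomb histone mark, was at 13.3 ± 2.99 and 18.0 ± 1.85 FPKM in EAT and IAT adipocytes and 87.6 ± 7.29 and 62.7 ± 3.92 in their SVCs (log2 differences 0.43 ± 0.14 and -0.47 ± 0.14, limma adjusted p = 0.0285 and 0.0155). Of 16 upstream regulators 9 were tested, with 2 higher and 1 lower in adipocytes and 1 higher and 2 lower in SVCs, near the 37.6% and 40.2% of all features, among them Egr2 and Rarb. Egr2, which activates Hox genes in the hindbrain and is also an immediate early gene, was at 30.8 ± 1.65 and 59.0 ± 1.78 FPKM in EAT and IAT adipocytes and 92.0 ± 2.60 and 40.9 ± 1.36 in their SVCs (log2 differences 0.92 ± 0.064 and -1.15 ± 0.064, limma adjusted p = 3.2e-07 and 1.9e-08). Rarb, a retinoic acid receptor, was at 1.09 ± 0.10 and 2.09 ± 0.255 FPKM in EAT and IAT adipocytes (log2 difference 0.57 ± 0.091, limma adjusted p = 0.000414).

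Of a list of 16 non-coding genes of the clusters, 15 were matched and 2 were tested, and neither passed between the depots. Of the 18 other features that lie inside the clusters, some of them on that list, 2 were tested, and 1 of these, Mira, a transcript of the Hoxa cluster, was lower in IAT in both fractions. Mira was at 21.3, 14.5 and 15.4 FPKM in EAT adipocytes and 11.8, 14.3 and 12.1 in IAT adipocytes. In SVCs it was at 12.6, 12.4 and 11.8 FPKM in EAT and 9.58, 7.47 and 9.40 in IAT. Every EAT library was above every IAT library of its fraction, with log2 differences of -0.38 ± 0.13 and -0.44 ± 0.13 (limma adjusted p = 0.04 and 0.0183). Hotairm1, a transcript of the Hoxa cluster, was at 17.9 ± 7.38 FPKM in EAT adipocytes and 15.5 to 16.7 in the other group means. Hotair, transcribed within Hoxc, reached at most 0.153 FPKM in any library. The genes of miR-10 and miR-196 in the clusters were listed at 0, in tables that do not measure mature miRNAs. Among the 37 features within 300 kb outside the clusters, 20 were tested, 3 fell in IAT adipocytes, and 2 rose and 6 fell in IAT SVCs, beside the 37.6% and 40.2% of all features called in either direction. Skap1, an adaptor of T cells beside Hoxb, was at 2.07 ± 0.0744 FPKM in EAT and 13.2 ± 2.12 in IAT SVCs (log2 difference 2.20 ± 0.088, limma adjusted p = 9.0e-10), in libraries where the summed T cell markers were at 8.45 to 9.59 and 46.8 to 74.4 FPKM.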

How the data were processed

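The deposited tables, 1 per library, hold FPKM with lower and upper confidence bounds, in the layout of Cufflinks. Per the submitters' processing notes, the authors used TopHat, Cufflinks and GRCm38 (mm10), with no versions, and no source used here gives settings or annotation. The tables hold no read counts. The fragments behind a value were estimated from its bounds, and in each library 57.4% to 62.4% of low values were whole within 0.02. Of 24890 features (24358 symbols, 273 at more than 1 locus), 9 with a failed estimate were left out. The 13175 that reached 1 FPKM in 3 or more of the 12 libraries were fitted as log2(FPKM + 1) with limma 3.58.1 in R 4.3.3 (lmFit, contrasts.fit, eBayes with a trend, 4 group means, no block). A two-sided Benjamini-Hochberg adjusted p under 0.05, over all features of a contrast, was called. Sums and shares were made per library with Python 3.11.15, pandas 2.3.3, NumPy 2.4.6 and matplotlib 3.10.9, and sequences came from RefSeq (GRCm38.p6). The procedure was checked on simulated data whose base levels were held above those of many tested Hox genes, so low levels were not covered. Alternatives were pseudocounts of 0.1 and 0.5, other filters, TPM and median-of-ratios scaling, a fit to only the groups compared, eBayes with no trend, the replicate number as a block and leaving out each library.

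Members and lists were chosen with earlier results of these data known. Full values were given for Hox genes called between depots with no overlap and a mean of at least 1 FPKM in a group (up to 20 by size), for the 6 with the smallest interaction p, and for list members with the smallest p. Hoxc11, Hoxd10, Hoxd3, Hoxb9 in adipocytes, Hotairm1, Hotair, Mira and the fibroblastic progenitor markers were named outside that rule, after their values were seen. Coordinates are 1-based. Values of some genes are not reported here.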

Additional observations from a re-analysis of the deposited data

Results flagged for a closer look

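The depot difference of 13 Hox genes differed between adipocytes and SVCs, by limma's interaction test at an adjusted p under 0.05, where 32.5% of all tested features passed. The values are the IAT minus EAT difference on log2(FPKM + 1) in adipocytes minus that in SVCs. The difference was larger in adipocytes for Hoxc10 (1.48), Hoxa10 (1.44), Hoxa9 (0.81), Hoxc9 (0.56), Hoxa3 (0.49), Hoxa2 (0.48) and Hoxc8 (0.46). Of these, Hoxc10, Hoxa10 and Hoxa9 passed the filter only through IAT and were below 1 FPKM in every EAT library. Hoxc8 fell in IAT in both fractions and by less in adipocytes, while Hoxa2 and Hoxa3 fell in SVCs and did not pass in adipocytes (-0.10 and -0.11, limma adjusted p = 0.411 and 0.365). It was below that in SVCs for Hoxc4 (-0.96), Hoxd4 (-0.71), Hoxd8 (-0.63), Hoxd9 (-0.55), Hoxb9 (-0.53) and Hoxc5 (-0.48). At a pseudocount of 0.1, Hoxc9 (adjusted p = 0.0633) and Hoxb9 (0.162) no longer passed.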

How the results depend on the processing

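Counts of called Hox genes stayed within 1.5 times in all 208 comparisons with an alternative. For 37 called log2 differences of named Hox genes, 771 alternative values were scored. Of these none changed sign and 25 fell short of the threshold. Differences not called in the main run were left out of that tally. Among those left out, Hoxa7 between depots in adipocytes ran from -0.29 to 0.067 and so changed sign. Hoxd8 between depots in SVCs also changed sign, from -0.15 to 0.026. Of the called genes, 13 of 14 between depots in adipocytes, 13 of 17 in SVCs, 20 of 21 between fractions in EAT, 17 of 19 in IAT and 11 of 13 in the interaction kept their call in every alternative run. Between fractions the median log2 difference over all features was -0.31 in EAT and -0.34 in IAT, and -0.20 and -0.18 under median-of-ratios scaling. Summed levels followed the scale. In TPM the sums, given for adipocytes of EAT and IAT and then SVCs of EAT and IAT, were 41.3, 41.8, 65.0 and 36.3 for Hoxa, 33.8, 37.4, 64.7 and 69.6 for Hoxb, 227.8, 198.5, 67.1 and 55.3 for Hoxc, and 27.0, 15.7, 34.6 and 33.3 for Hoxd. Under median-of-ratios scaling they were, in IAT adipocytes, 22.3, 19.97, 105.9 and 8.38 for Hoxa, Hoxb, Hoxc and Hoxd, in EAT SVCs 28.9, 28.8, 29.9 and 15.4, and in IAT SVCs 27.99 for Hoxc.

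The replicate numbers gave no consistent pairing of the libraries. Deviations from the group mean correlated at -0.312 to 0.373 between same-numbered libraries, with 5 of 18 pairs over 0.1. By these deviations, 5 of 12 libraries correlated best with their own number. Between EAT and IAT adipocytes, r was 0.373, -0.0786 and 0.349 for numbers 1, 2 and 3. Whether same-numbered libraries came from the same mice is not labelled. With the replicate number as a block, 6 Hox genes were called higher and 8 lower in IAT adipocytes, 8 and 9 in IAT SVCs, and 7 rather than 8 higher in adipocytes of IAT. Depth limits the genes near 0: adipocyte levels of 0.05 to 0.342 FPKM leave ratios against EAT for Hoxa9, Hoxa10 and Hoxc10 imprecise.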
